A study of Drosophila melanogaster with 2 samples.

Results

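The tubulin genes of Drosophila melanogaster were followed in nuclear RNA of embryonic neurons and of neural stem cells (NSCs). The family was taken by gene symbol and held 10 genes of the 13623 in the table, 4 for alpha-tubulin, 4 for beta-tubulin and 2 for gamma-tubulin. All 10 had a row, and all 10 had at least 1 FPKM (fragments per kilobase of transcript, scaled to the mapped fragments of the library) in at least 1 library, which was the condition for comparing a gene. The neuron library came from Elav-Gal4;UAS-3xFLAG-blrp-mCherry-RanGap embryos aged 12 to 14 h after egg laying, and the NSC library from embryos aged 5 to 7 h of a Sca-Gal4/cyo line with the same UAS transgene. In both, GAL4 switched on a RanGap fusion that sits on the nuclear envelope and carries FLAG, mCherry and a peptide that biotin ligase recognises, and tagged nuclei were pulled from a whole-embryo homogenate with anti-FLAG beads, a method called INTACT. The same transgenic stock also expresses the biotin ligase BirA under GAL4. The elav driver marks neurons but is also active for a time in embryonic neuroblasts and glia, the sca driver marks proneural clusters and neuroblasts, and the Sca-Gal4/cyo parents were crossed among themselves, so that not every embryo of the NSC collection need carry the driver. There was 1 library per group, so no difference below has a replicate check, no p-value was computed, and the effects of driver, cell type and age cannot be told apart.

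Microtubules are hollow polymers of alpha- and beta-tubulin heterodimers, and gamma-tubulin sits in ring complexes that start new microtubules at centrosomes and other organizing centres. Dividing neuroblasts build mitotic spindles from them, while neurons, which no longer divide, build the microtubule bundles of axons and dendrites. Drosophila expresses several tubulin isotypes, some in nearly every cell and others in particular tissues such as the oocyte, the testis, muscle or sense organs.

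The family as a whole was at a similar level in both libraries, but its beta members differed strongly in their proportions. betaTub60D, whose product is known as beta3-tubulin of the embryonic mesoderm and of some sense organs, had 1083 FPKM in neurons, against 68.2 FPKM in NSCs. betaTub56D, the beta isotype of nearly all cells, had 842 FPKM in neurons, against 2347 FPKM in NSCs. alphaTub84B, the main alpha isotype, had 1805 FPKM in neurons, against 1982 FPKM in NSCs. The change of a gene was taken as log2((neuron FPKM + 1)/(NSC FPKM + 1)), and 2-fold as a log2 change of 1 in either direction. Of the 10 tubulin genes, 4 were higher in neurons by 2-fold or more, 2 were lower by 2-fold or more and 4 stayed within 2-fold. Of the 10158 genes compared, 26.9% were higher by that much and 16.6% lower. Their median log2 change was 0.14, and that of the tubulin genes -0.28. Of the 4 higher tubulin genes, betaTub85D passed the 1 FPKM minimum only through the neuron library. With 1 FPKM required in both libraries, 3 tubulin genes were higher.

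**Figure D1:**
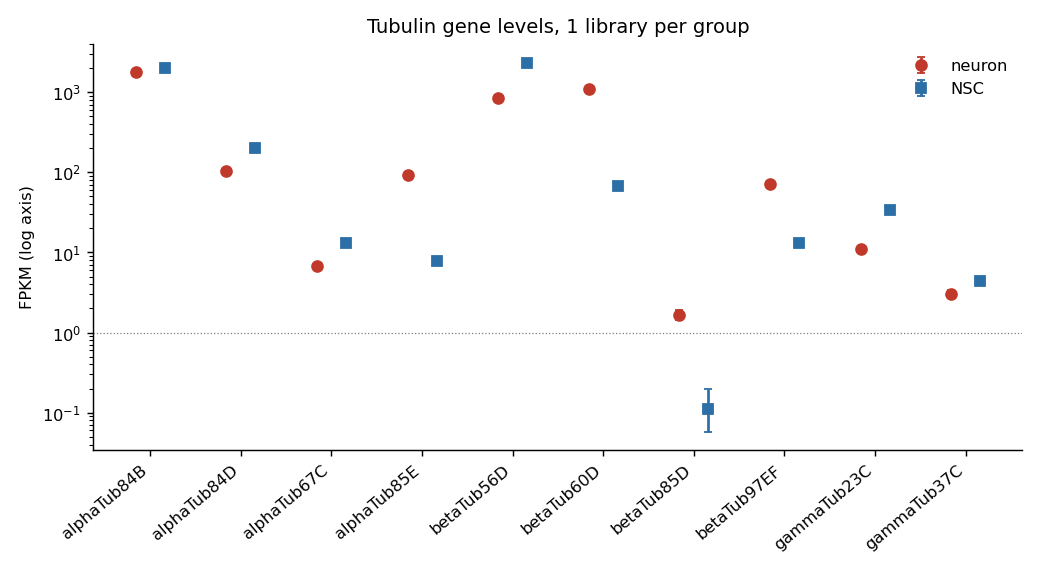
FPKM of each tubulin gene on a log axis, in the neuron library (circles) and the NSC library (squares), with exact Poisson intervals for counting error from estimated fragments and a dotted line at 1 FPKM. betaTub60D, alphaTub85E, betaTub97EF and betaTub85D lie higher in neurons, and betaTub56D and gammaTub23C lie lower.

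All 10 genes are annotated as protein-coding in the Ensembl annotation of assembly BDGP6. The deposited table was made on another assembly, so lengths and arms are given here but no coordinates. The alpha genes alphaTub84B, alphaTub84D and alphaTub85E and the beta genes betaTub85D and betaTub97EF lie on arm 3R, alphaTub67C on 3L, betaTub56D and betaTub60D on 2R, and gammaTub23C and gammaTub37C on 2L. Their longest transcripts measured between 1560 bp (alphaTub85E) and 2518 bp (betaTub60D). alphaTub84D has a single exon, whereas betaTub97EF has up to 7 exons spread over 21377 bp, the longest span of the family. The exons of these genes do not overlap exons of another annotated gene, on either strand.

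The precision of each level was judged from its estimated number of fragments. Low FPKM values move in steps of whole fragments, and these steps put the depth at about 69500000 mapped fragments in the neuron library and 65400000 in the NSC library. The estimate rests on 846 and 549 genes with a single annotated transcript, and on subtracting 200 bp from the transcript length. By this estimate the tubulin values rest on 190 fragments or more in neurons and on 397 or more in NSCs, apart from betaTub85D, which rests on about 12.0 fragments in NSCs. The intervals given below are exact 95% intervals (Poisson for a level, Clopper-Pearson for a ratio) that cover counting error only and leave out variation between preparations.

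The alpha genes were examined first. alphaTub84B encodes the alpha-tubulin of nearly all cells, and it made up 89.8% of the summed alpha FPKM in neurons and 89.9% in NSCs. It was the 86th highest gene of the whole neuron table and the 87th highest of the NSC table. Its log2 change was -0.14, and TPM scaling (each library scaled to the same sum) turned the direction to 0.13.

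alphaTub84D encodes a protein nearly identical to that of alphaTub84B. It had 105 FPKM in neurons, against 202 FPKM in NSCs, a log2 change of -0.93 that stayed just inside 2-fold. There was 17.2 times as much alphaTub84B as alphaTub84D in neurons, against 9.82 times in NSCs. Because only uniquely mapped reads were used and the genes are alike in sequence, the split between alphaTub84B and alphaTub84D is uncertain. The 2 genes together had 1910 FPKM in neurons and 2184 FPKM in NSCs, a log2 ratio of -0.19 that became 0.07 under TPM scaling.

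alphaTub67C encodes an alpha-tubulin deposited in the egg and used in the meiotic spindle and the first divisions of the embryo. It had 6.84 FPKM in neurons, against 13.2 FPKM in NSCs, a log2 change of -0.86. The level was thus lower in the neuron library, by less than 2-fold.

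alphaTub85E, described in chordotonal organs and in the testis, was the alpha gene with the largest change. It had 92.3 FPKM in neurons, with a counting interval of 90.4 to 94.3, against 7.90 FPKM in NSCs, with an interval of 7.33 to 8.51. This is 11.7 times as much in neurons, a log2 change of 3.39, which ranked 246th from the top of the 10158 genes compared. Its place among all genes by level moved with it, at percentile 92.9 in neurons and percentile 54.4 in NSCs. It made up 4.60% of the summed alpha FPKM in neurons and 0.358% in NSCs. The share of alphaTub84D was 5.23% in neurons and 9.15% in NSCs.

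The beta genes differed more. betaTub56D had the highest level of the family in NSCs and ranked 74th of the whole NSC table, against 116th of the neuron table. Its level in neurons was 0.359 times that in NSCs, a log2 change of -1.48, which ranked 780th from the bottom of the genes compared. It made up 42.1% of the summed beta FPKM in neurons, against 96.6% in NSCs.

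betaTub60D had the largest change of the family. Its counting interval was 1078 to 1088 FPKM in neurons and 66.9 to 69.5 FPKM in NSCs. The ratio was 15.9, with a log2 change of 3.97 that ranked 109th from the top of the genes compared. It stood 102nd in the neuron table, above betaTub56D, and 1604th in the NSC table. Its share of the summed beta FPKM was 54.2% in neurons, against 2.81% in NSCs, and there was 1.29 times as much betaTub60D as betaTub56D in neurons, against 0.0291 times in NSCs.

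**Figure D2:**
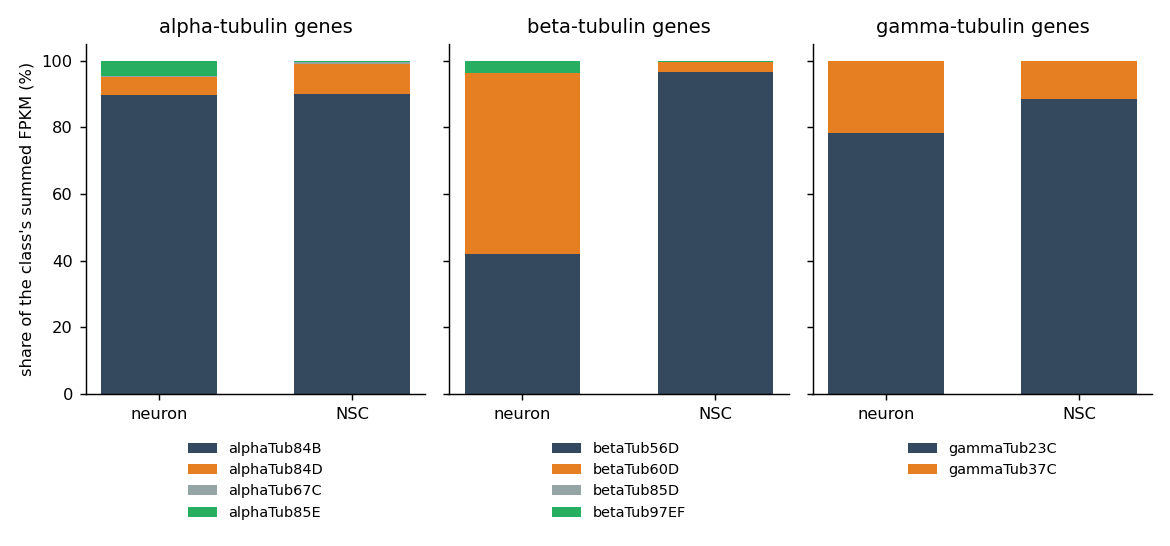
Stacked bars of each gene's share (%) of the summed FPKM of its class, alpha, beta and gamma, in the neuron library (left bar) and the NSC library (right bar). betaTub60D takes 54.2% of the beta sum in neurons, against 2.81% in NSCs, whereas alphaTub84B takes 89.8% of the alpha sum in neurons and 89.9% in NSCs.

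betaTub97EF encodes a beta isotype known from gut and other epithelia, where cold raises it. It had 71.2 FPKM in neurons, with a counting interval of 69.6 to 72.8, against 13.0 FPKM in NSCs, with an interval of 12.3 to 13.8. The level was 5.47 times as high in neurons, a log2 change of 2.36. It made up 3.56% of the summed beta FPKM in neurons and 0.536% in NSCs.

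betaTub85D encodes the beta isotype of the male germ line and sperm tail. It had 1.66 FPKM in neurons, against 0.112 FPKM in NSCs, and it passed the 1 FPKM minimum only through the neuron library. The log2 change was 1.26, and the ratio without a pseudocount was 14.8 (interval of log2 ratio 3.06 to 4.88). With a pseudocount of 5 the log2 change was 0.38, under 2-fold. Of 10 testis genes, among them the sperm protein genes dj and Mst87F, 9 were below 1 FPKM in neurons and 9 in NSCs, and 8 were at 0 in NSCs. Their summed level was 2.87 FPKM in neurons and 13.4 FPKM in NSCs, the second value almost wholly that of mia with 13.2 FPKM. Mst87F had 1.29 FPKM in neurons and was listed at 0 in NSCs.

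The gamma genes were far below the main alpha and beta genes in both libraries, although gammaTub23C stood at percentile 54.1 of all genes in neurons and percentile 77.5 in NSCs. gammaTub23C encodes the gamma-tubulin of somatic centrosomes and ring complexes. It had 10.9 FPKM in neurons (interval 10.3 to 11.5), against 33.9 FPKM in NSCs (interval 32.8 to 35.0). Its level in neurons was 0.323 times that in NSCs, a log2 change of -1.55, the lowest of the family and 703rd from the bottom of the genes compared. gammaTub37C, the maternal gamma-tubulin of the oocyte and early embryo, had 3.03 FPKM in neurons (interval 2.69 to 3.39), against 4.42 FPKM in NSCs (interval 3.99 to 4.87), a log2 change of -0.43. gammaTub23C was thus 3.61 times as high as gammaTub37C in neurons and 7.67 times as high in NSCs.

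**Figure D3:**
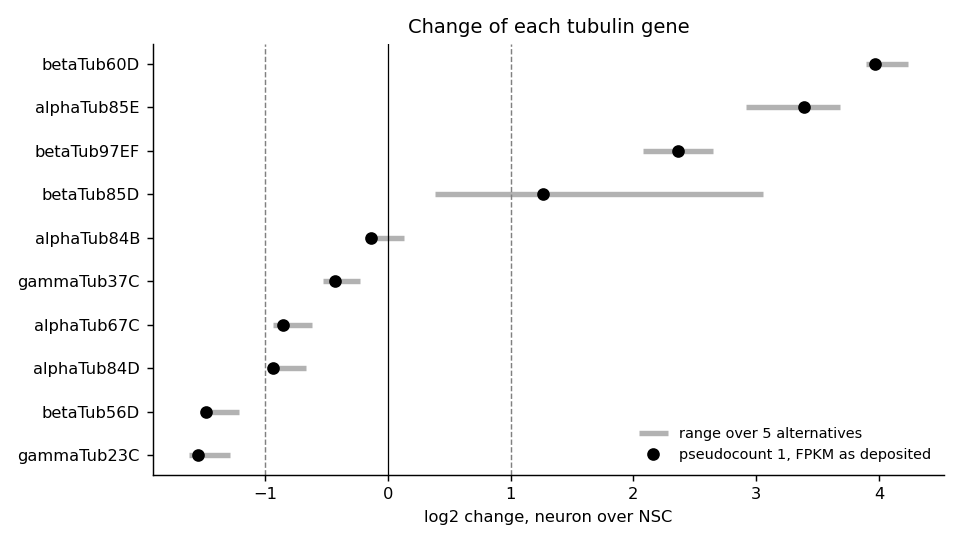
Log2 change, neuron over NSC, of each tubulin gene (points), with the range over 5 alternative pseudocounts and scalings (grey bars) and 2-fold limits (dashed). betaTub60D is highest at 3.97 and gammaTub23C lowest at -1.55; the bar of betaTub85D crosses the upper limit and that of alphaTub84B crosses 0.

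Ordered by level, the neuron library ran alphaTub84B, betaTub60D, betaTub56D, alphaTub84D, alphaTub85E, betaTub97EF, gammaTub23C, alphaTub67C, gammaTub37C and betaTub85D, and no neighbours in this order had overlapping counting intervals. The NSC library ran betaTub56D, alphaTub84B, alphaTub84D, betaTub60D, gammaTub23C, alphaTub67C, betaTub97EF, alphaTub85E, gammaTub37C and betaTub85D. There the intervals of alphaTub67C (12.5 to 13.9 FPKM) and betaTub97EF (12.3 to 13.8 FPKM) overlapped, and these 2 could not be put in order. In both libraries the intervals leave out the uncertain split between alphaTub84B and alphaTub84D, so the place of alphaTub84D is less certain than its interval.

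Summed over their classes, the alpha and beta levels were closer between the libraries than those of betaTub60D or betaTub56D. The gamma sum was lower in neurons by more than 2-fold. The alpha genes summed to 2009 FPKM in neurons and 2205 FPKM in NSCs, and the beta genes to 1998 FPKM in neurons and 2428 FPKM in NSCs. The alpha to beta ratio was 1.01 in neurons and 0.908 in NSCs. The log2 ratio of the sums was -0.13 for alpha, -0.28 for beta and -0.22 for all 10 genes, and TPM scaling turned the alpha sum to 0.13 and the sum of all 10 to 0.05, with the beta sum at -0.01. Without betaTub60D the other beta genes summed to 915 FPKM in neurons and 2360 FPKM in NSCs, a log2 ratio of -1.37. The gamma genes summed to 13.9 FPKM in neurons and 38.3 FPKM in NSCs, a log2 ratio of -1.46. Tubulin genes together took 0.601% of all FPKM in neurons and 0.580% in NSCs.

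Partners of tubulin were then counted from lists of genes that act on it. The proteins that join gamma-tubulin in the ring complex came first. Of 6 compared genes, 4 were at least 2-fold lower in neurons, Grip128 (-0.71) and Grip163 stayed within 2-fold, and the median log2 change was -1.29. The 4 of 6 stand beside 16.6% of all genes compared. Grip71, which links the ring complex to augmin, had 5.70 FPKM in neurons, against 15.8 FPKM in NSCs (log2 change -1.33). Grip84, a core ring protein, had 10.3 FPKM in neurons, against 27.2 FPKM in NSCs (-1.32), and Grip75 had 11.7 FPKM in neurons, against 30.3 FPKM in NSCs (-1.30). Grip163, another ring protein, changed least, with 8.57 FPKM in neurons and 12.3 FPKM in NSCs (-0.47). With a pseudocount of 5, 2 of the 6 were at least 2-fold lower. The small subunit gene Mzt1 was below 1 FPKM in both libraries and was not compared.

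All 8 subunits of augmin, the complex that recruits gamma-tubulin rings to spindle microtubules for branching nucleation, were at least 2-fold lower in neurons, with a median log2 change of -2.21. The 8 of 8 stand beside 16.6% of all genes compared. msd1 had 12.6 FPKM in neurons, against 79.1 FPKM in NSCs (-2.56). msd5 had 8.75 FPKM in neurons, against 48.9 FPKM in NSCs (-2.36), and dgt5 had 4.29 FPKM in neurons, against 25.7 FPKM in NSCs (-2.34). The smallest difference of the complex was that of dgt2, with 10.5 FPKM in neurons and 35.5 FPKM in NSCs (-1.67).

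The chaperonin CCT, which folds newly made alpha- and beta-tubulin as well as actin, mostly stayed within 2-fold. All 8 subunits had a log2 change above 0, with a median of 0.77, and 2 were at least 2-fold higher in neurons, or 5 under TPM scaling. The 2 of 8 stand beside 26.9% of all genes compared. T-cp1 had 124 FPKM in neurons, against 54.8 FPKM in NSCs (1.16), and Cct5 had 119.9 FPKM in neurons, against 55.1 FPKM in NSCs (1.11). Cctgamma changed least, with 97.3 FPKM in neurons and 77.7 FPKM in NSCs (0.32). The subunits lay within a narrow band in each library, at 97.3 to 124 FPKM in neurons and 54.8 to 77.7 FPKM in NSCs.

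Prefoldin, which hands nascent tubulin to CCT, and the cofactors that assemble the heterodimer after it, all stayed within 2-fold. Over these 12 genes the median log2 change was -0.14. The extremes were the prefoldin gene CG13993 (Pfdn1), with 106 FPKM in neurons and 186 FPKM in NSCs (-0.81), and the tubulin cofactor TBCB, with 32.4 FPKM in neurons and 23.9 FPKM in NSCs (0.42).

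Enzymes that modify tubulin were mixed. Of 15 listed genes, 9 passed the 1 FPKM minimum, 2 of these were at least 2-fold higher in neurons, 7 stayed within 2-fold, and the median log2 change was 0.25. The 2 of 9 stand beside 26.9% of all genes compared, and the absence of lower genes beside 16.6%. Atat (CG3967 in the table), the alpha-tubulin acetyltransferase, had 64.1 FPKM in neurons, against 16.5 FPKM in NSCs (1.89). HDAC6 and Sirt2, which take the acetyl group off, had log2 changes of 0.89 and 0.80. Of the tubulin ligase-like family that adds amino acids such as glutamate to tubulin, CG4089 (TTLL15) had 22.1 FPKM in neurons, against 6.98 FPKM in NSCs (1.53), whereas CG5987 (TTLL6B) had 3.53 FPKM in neurons and 7.41 FPKM in NSCs (-0.89).

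Among 18 compared genes of microtubule-binding and severing proteins, 6 were higher in neurons by 2-fold or more and 1 was lower by as much. The 6 of 18 stand beside 26.9% of all genes compared, and the 1 of 18 beside 16.6%. The median log2 change was 0.27. kat-60L1, a katanin-like severing enzyme, had 12.2 FPKM in neurons, against 0.643 FPKM in NSCs (3.00), and futsch, the fly MAP1B, had 7.08 FPKM in neurons, against 0.563 FPKM in NSCs (2.37). tau, which binds axonal microtubules, had 21.7 FPKM in neurons, against 5.58 FPKM in NSCs (1.78). kat-60L1 and futsch passed the 1 FPKM minimum only through the neuron library, and with 1 FPKM required in both libraries 4 genes were higher. Map60, a centrosomal microtubule-associated protein, was the gene at least 2-fold lower, with 61.5 FPKM in neurons, against 289 FPKM in NSCs (-2.22). The other genes at the low end were msps and Eb1, which act at growing microtubule ends, with log2 changes of -0.83 and -0.77. The remaining tubulin-like genes CG32396 (betaTub65B) and CG7794 were below 1 FPKM in both libraries.

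**Figure D4:**
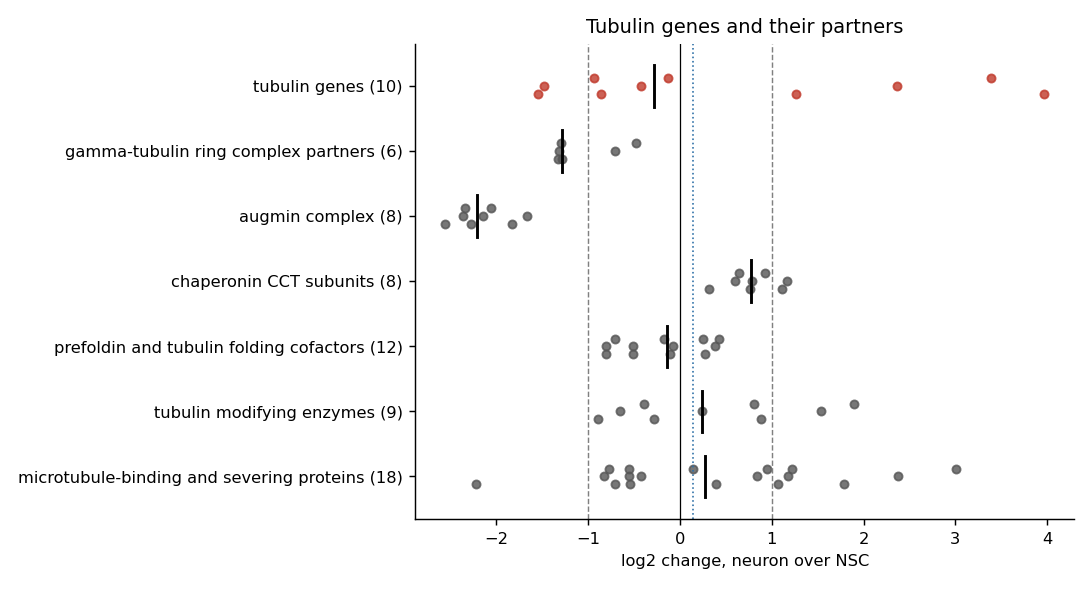
Log2 change, neuron over NSC, of tubulin genes (top row) and of each list of partners, with 1 point per compared gene, the number of genes in brackets, the list median (black bar), 2-fold limits (dashed) and the median of all genes compared (dotted, 0.14). The augmin subunits lie below the lower limit, and the CCT subunits lie above 0 with 6 of 8 inside the limits.

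Markers of cell types were read beside these results. Each count of markers stands beside the 26.9% of all genes compared that were at least 2-fold higher and the 16.6% lower. Of 8 neuronal markers, 7 were at least 2-fold higher in neurons, while elav itself had 77.0 FPKM in neurons and 46.5 FPKM in NSCs (0.72). Of 7 NSC markers, 4 were at least 2-fold lower in neurons, among them sca with 4.72 FPKM in neurons, against 64.0 FPKM in NSCs (-3.51), while insc had a log2 change of 0.53. Markers of several other tissues were present in both libraries, while those of testis were mostly below 1 FPKM. The paper scored the nuclei after the pull-down and gave a high purity for both cell types. By its account, neuron gene sets lay above sets from other tissues in neuronal nuclei, and NSC sets did so in NSC nuclei. How that purity relates to the marker levels given here was not tested. In bulk nuclei fewer nuclei of a type and less RNA per nucleus cannot be told apart.

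betaTub60D is known from the mesoderm and from some sense organs. Its level was read beside muscle markers, which were higher in neurons too. Of 12 muscle markers, 11 were at least 2-fold higher and none was lower. Their summed level was 5195 FPKM in neurons and 1071 FPKM in NSCs, with single genes between 44.1 and 2131 FPKM in neurons and between 7.35 and 382 FPKM in NSCs, and none at 0. TpnC73F, a troponin C, had 460 FPKM in neurons, against 48.4 FPKM in NSCs (3.22), Mhc, the muscle myosin, had 338 FPKM in neurons, against 59.5 FPKM in NSCs (2.48), and Act57B, a muscle actin, had 2131 FPKM in neurons, against 382 FPKM in NSCs (2.48). Mef2, the muscle transcription factor, was the smallest at 79.8 FPKM in neurons and 47.5 FPKM in NSCs (0.74). The log2 change of betaTub60D (3.97) lay above that of each of the 12. Muscle was not the only list that rose, with a median log2 change of 2.13, against 2.82 for the neuronal markers. fne (4.61) was the neuronal marker above betaTub60D, and nompA (4.68) the sensory organ gene above it. The part of muscle, neuronal or sense organ nuclei or RNA in the value of betaTub60D was not tested.

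alphaTub85E is described in chordotonal organs and in the testis. Genes of the stretch-sensing chordotonal organs and of sensory cilia were read beside alphaTub85E. Of 10 such genes, 9 passed the 1 FPKM minimum, 7 of these were higher in neurons by 2-fold or more and none was lower by as much. Of these 7, nompB, nompC, iav, btv and rempA passed the minimum only through the neuron library, so their count carries no weight of its own. unc had a log2 change of -0.62 and tilB of 0.13. The summed level of the 10 was 107 FPKM in neurons and 10.4 FPKM in NSCs, with single genes between 0.459 and 64.7 FPKM in neurons and between 0.116 and 2.63 FPKM in NSCs, and none at 0. nompA, a protein of the cap that joins the sensory cilium to the cuticle, had 64.7 FPKM in neurons, against 1.57 FPKM in NSCs (4.68), and Rfx, a regulator of ciliary genes, had 21.6 FPKM in neurons, against 2.53 FPKM in NSCs (2.68). The channel gene nan was below 1 FPKM in both. Other lists rose as well, with a median log2 change of 2.13 for muscle and 2.82 for neuronal markers, against 1.47 for this list. The part of chordotonal organs, of testis genes or of any other tissue in the value of alphaTub85E was not tested.

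The maternal isotypes were read beside germline and maternal genes. Of 15 such genes, 9 were at least 2-fold lower in neurons and 1, vas, was higher, with a median log2 change of -1.35. Their summed level was 229 FPKM in neurons and 499.8 FPKM in NSCs. Single genes lay between 3.25 and 59.5 FPKM in neurons and between 4.09 and 164 FPKM in NSCs, with none at 0. stau was the highest in both libraries and a large part of each sum. plu, which acts in the first embryonic divisions, had 7.70 FPKM in neurons, against 50.1 FPKM in NSCs (-2.55). alphaTub67C (-0.86) and gammaTub37C (-0.43) changed in the same direction by less than the median of that list. The part of maternal RNA in these values, and in those of the list, was not tested.

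betaTub97EF was read beside the remaining tissues, whose counts again stand beside 26.9% of all genes compared (higher) and 16.6% (lower). Of 4 gut markers, 2 were at least 2-fold higher in neurons, with a summed level of 227 FPKM in neurons and 123 FPKM in NSCs. Of 5 tracheal markers, 3 were at least 2-fold higher and 1 was lower, with a summed level of 1460 FPKM in neurons and 122 FPKM in NSCs. Osi6 alone had 870 FPKM in neurons, while trh and btl had log2 changes of 0.60 and -1.38. Of 6 hemocyte markers, 5 were compared and 3 were at least 2-fold higher, while Hml was below 1 FPKM in both libraries. Their summed level was 700 FPKM in neurons and 117 FPKM in NSCs. Most of the neuron sum came from Cg25C (367 FPKM) and vkg (191 FPKM). The gene srp is counted in both the gut and the hemocyte list. Of 4 glial markers, 2 were at least 2-fold higher, with a summed level of 260 FPKM in neurons and 147 FPKM in NSCs. The part of these tissues in the values of tubulin genes was not tested.

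**Figure D5:**
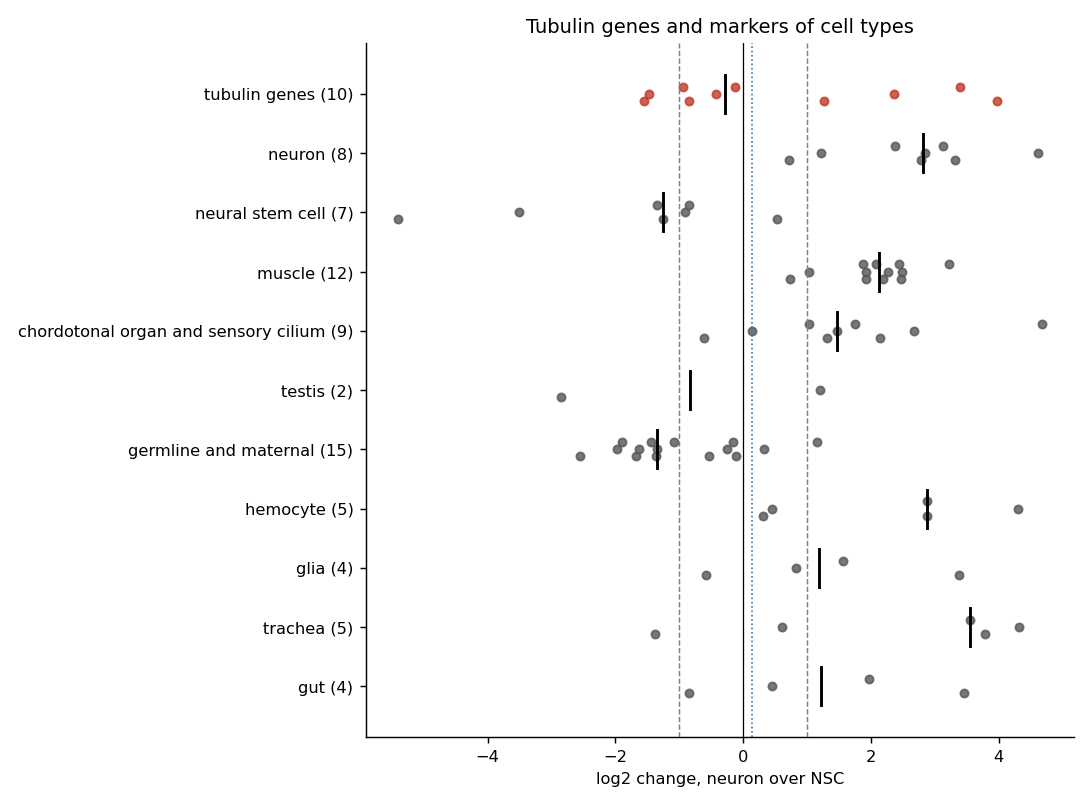
Log2 change, neuron over NSC, of tubulin genes (top row) and of marker genes of 10 cell types or tissues, with 1 point per compared gene, the number of genes in brackets, the list median (black bar), 2-fold limits (dashed) and the median of all genes compared (dotted, 0.14). Muscle markers lie above 0, with 11 of 12 past the upper limit, and the NSC markers run down to -5.40 (l(1)sc).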

How the data were processed

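Nuclear RNA was sequenced on the Illumina HiSeq2000, 1 library per group. Per the methods, the authors aligned reads to FlyBase transcripts with TopHat 1.3.1 and computed the deposited FPKM from uniquely mapped reads with Cuffdiff 1.3.0; the submitters' processing notes also name Bowtie and build dm3. Strand and read length are not given in the sources used here. The labels describe cross-linked embryos, the methods uncrosslinked ones for RNA. The ageing times in the labels do not add up to the stated ages, which were used.

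The header line stood before every gene row and was dropped. Genes with at least 1 FPKM in at least 1 library were compared, with a pseudocount of 1, which understates the change of low genes. No count model was fitted, since FPKM values hold no whole counts. Fragments were estimated from FPKM, the median transcript length less 200 bp, and the depth. The depth search and the 2-fold calls were tested on simulated data. These used the same 200 bp subtraction and known transcript lengths, so the test could not check the subtraction or the annotation. Of 152 listed names, 132 matched the table directly, 19 through a RefSeq synonym (Release 6) and 1 (ringer) not uniquely. Exons came from Ensembl release 115. Python 3.11.15, pandas 2.3.3 and scipy 1.17.1 were used.

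The members and lists were chosen with earlier results of these data known. All 10 tubulin genes are named, with at most 3 genes each way per list, and the driver genes sca and elav. The genes taken from a list were those of highest and lowest log2 change among the genes compared. Sirt2, iav, btv, rempA, nan, Hml, Mzt1, dj, stau, CG32396 and CG7794 fall outside this rule and were named after their values were seen.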

Additional observations from a re-analysis of the deposited data

How the results depend on the processing

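The alternatives were pseudocounts of 0.1 and 5, TPM, median and upper quartile scaling, and other filters on low values. The log2 change of betaTub60D lay between 3.89 and 4.24 under them, of alphaTub85E between 2.92 and 3.68, of betaTub97EF between 2.08 and 2.64, of betaTub56D between -1.48 and -1.21 and of gammaTub23C between -1.62 and -1.29, each past 2-fold throughout. betaTub85D lay between 0.38 and 3.06 and lost its call with a pseudocount of 5. It also dropped out where a gene needed 5 FPKM in 1 library or 1 FPKM in both, so that the number of tubulin genes at least 2-fold higher was 3 under these and 4 under the others run; the number lower was 2 under each. Within 2-fold, alphaTub84D lay between -0.94 and -0.67, alphaTub67C between -0.94 and -0.62, gammaTub37C between -0.53 and -0.23, and alphaTub84B between -0.14 and 0.13, above 0 under TPM scaling only. TPM scaling shifts log2 FPKM ratios by 0.27 before the pseudocount. It gave log2 ratios of the sums of 0.13 (alpha), -0.014 (beta), -1.19 (gamma) and 0.051 (all 10 genes). Leaving betaTub60D out of the beta sum gave -1.37, and summing alphaTub84B with alphaTub84D gave -0.19; both were chosen after seeing the data. Among counts of partner genes, 2 ring complex partners were 2-fold lower with a pseudocount of 5, 5 CCT subunits and 4 modifying enzymes were 2-fold higher under TPM scaling, and 1 modifying enzyme was 2-fold lower with a pseudocount of 0.1. The 6 microtubule-binding and severing genes that were higher became 4 with a pseudocount of 5 or with 1 FPKM in both libraries, and 8 under TPM scaling. The other counts of partner genes were as given under each alternative run. No leave-one-out or paired fit is possible with 1 library per group. Depth limits betaTub85D in NSCs, at about 12.0 fragments.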
